A study of Mus musculus with 4 samples.

Results

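The 42 genes described here encode proteins of blood coagulation, fibrinolysis and complement, and they were taken as every probe on a whole-genome mouse array whose gene name was one of a fixed set of names, older aliases included (C5 is named Hc in RefSeq). All 42 had a probe, out of 27975 gene names on the array, and 26 belong to coagulation and fibrinolysis and 16 to complement. The RNA was that of induced hepatocyte-like cells (iHep cells), made from C57BL/6 mouse cells that the labels call MDFs without spelling the term out. All were kept in 2D or in 3D culture, in 2 independent experiments named iHep-1 and iHep-2. Each experiment gave 1 array per culture, so each culture had n = 2 and the 4 arrays limit the precision of every value. The factors used for the conversion, the age of the donors and the way the 3D culture was made are not given in the sources used here, and the titles of both 2D samples carry a plus sign of unstated meaning that cannot be told apart from culture.

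Clotting proceeds through a series of serine proteases, most of them made by hepatocytes and released as inactive precursors, which ends with thrombin cutting fibrinogen into fibrin. Antithrombin, heparin cofactor II and the protein C system hold that series back, and plasmin, made from plasminogen, dissolves the clot. Complement is a parallel set of liver-made proteins, proteases among them, whose pathways converge on C3 and end in a pore built from the terminal components. Several coagulation proteases carry residues modified with the help of vitamin K, and many promoters of both families are known to be bound by the hepatocyte regulators HNF4 and C/EBP.

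Promoters were printed for 5 genes, which show examples of the motif matches found among the members and the 3 neighbouring fibrinogen genes that differed in their values below. The windows are the 150 bases before the start site of each gene, from RefSeq on build GRCm38.p6, read 5′ to 3′ on the gene's strand, and capitals mark the match. In F7 the capitals mark the reverse complement of CAAAGGTCA (HNF4). In C3 they mark TTGCNNAA (C/EBP) and in Fga its reverse complement, in Fgb TTGCNNAA and CTGGGAA, and in Fgg CTGGGAA, the type II interleukin-6 response element.
F7 (chr8:13025884-13026033, plus strand): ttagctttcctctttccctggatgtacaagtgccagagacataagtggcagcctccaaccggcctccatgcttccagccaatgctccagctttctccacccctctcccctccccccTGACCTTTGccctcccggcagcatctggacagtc
C3 (chr17:57228137-57228286, minus strand): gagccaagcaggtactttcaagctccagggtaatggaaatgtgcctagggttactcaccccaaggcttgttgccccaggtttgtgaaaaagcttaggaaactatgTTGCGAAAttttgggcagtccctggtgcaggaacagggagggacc
Fga (chr3:83026003-83026152, plus strand): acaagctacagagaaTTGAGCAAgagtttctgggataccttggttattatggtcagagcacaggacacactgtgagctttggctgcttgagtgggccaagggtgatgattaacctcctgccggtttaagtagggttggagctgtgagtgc
Fgb (chr3:83049864-83050013, minus strand): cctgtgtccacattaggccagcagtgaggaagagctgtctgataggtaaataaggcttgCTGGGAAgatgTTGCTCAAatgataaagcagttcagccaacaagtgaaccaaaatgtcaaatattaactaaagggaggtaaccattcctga
Fgg (chr3:83007574-83007723, plus strand): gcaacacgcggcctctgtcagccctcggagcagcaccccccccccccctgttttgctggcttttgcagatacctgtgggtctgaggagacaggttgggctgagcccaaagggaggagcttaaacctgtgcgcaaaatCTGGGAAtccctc

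Of the 42 members, 34 had an entry in the promoter table, in which each window runs from upstream of the start to a short way past it, and each motif was searched on both strands. CAAAGTCCA or CAAAGGTCA stood in 2, F7 and F9 (5.88%, against 1.1% of 27025 genes with a promoter). In F7 the match began at -34, and in F9 it spanned the start itself. TTGCNNAA stood in 11 (32.4% against 12.2%), which were Serpinc1, Fga, Fgb, F11, Klkb1, Cpb2, C9, Hrg, Cpn2, C3 and F9. CTGGGAA stood in 7 (20.6% against 12.7%), and the NF-kB motif in none, against 1.89% of all genes. A match says that these letters are present in the window and nothing of binding in these cells.

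Values below are log2 of the background-corrected spot signal minus the 75th percentile of the same array, so 0 marks a signal at that percentile, and a difference of 1 is 2-fold. They compare the same probe between arrays and do not rank genes against each other. A gene was tested where its probe was well above background on at least 2 of the 4 arrays, which left 16451 genes and 38 of the 42 members, 35 of them well above background on every array. Hepatocyte markers were present, with 8 of the 10 in the list well above background on every array (Serpina1a had no probe, and Tdo2 was not well above background anywhere), and Alb stood at 9.11, 8.94, 8.82 and 9.57 on the arrays of 2D iHep-1, 3D iHep-1, 2D iHep-2 and 3D iHep-2. Their summed level, relative to the 75th percentile, was 1270 and 997 in 2D and 1240 and 1950 in 3D. The summed level of 9 fibroblast markers was 17.9 and 63.4 in 2D and 41.6 and 25.3 in 3D (Thy1 and Dcn not well above background anywhere), and that of 5 biliary markers, all present on every array, 16 and 46.8 in 2D and 25.3 and 30 in 3D. Macrophage markers, with Ptprc and Clec4f not well above background on any array, summed to 1.58 and 0.282 in 2D and 1.25 and 0.111 in 3D. The sums of iHep-1 rested on Lyz2, at 0.58 in 2D and 0.13 in 3D there, and at -3.06 and -5.27 in iHep-2. Csf1r went the other way, at -7.05 (not well above background) and -5.90 in iHep-1 and at -3.36 and -4.99 in iHep-2. Endothelial markers summed to between 0.133 and 0.224, with Pecam1, Kdr, Tek and Tie1 not well above background anywhere, and megakaryocyte or platelet markers to between 0.0289 and 0.0494, with only Itga2b well above background, on 1 array. In bulk RNA of this kind, fewer cells of a type and less RNA per cell cannot be told apart, and the part of these marker levels in the results was not tested.

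Clotting and complement mRNAs were mostly higher in 3D culture, but no single gene passed the test. Of the 38 tested members, 27 (71.1%) were higher in 3D in both experiments, where 33.2% of all tested genes were, and 1 was lower in both, Masp1, against 33%. At least 2-fold higher in both experiments were 17 members (44.7%), against 4.26% of all genes, and 0 were at least 2-fold lower in both, against 2.13%. In 19 members (50%) both 3D arrays lay above both 2D arrays, against 19.8% of all genes, and in 1 both lay below, against 21.5%. Over the 38 members the median difference, 3D minus 2D, was 1.66, and over all tested genes 0.019. With coagulation and fibrinolysis taken alone the median was 1.66 over 26 genes, and with complement alone 1.84 over 12. C8b entered the test through its 3D arrays alone, so its direction in these counts was fixed by the filter. With a filter on all 4 arrays, which leaves out C8b, the median was 1.62 over 36 members and 0.01 over all genes.

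limma with Benjamini-Hochberg adjustment called 0 of 16451 genes between the cultures (0%). The lowest adjusted p over all genes was 0.497, and the members ranged from 0.684 to 0.994. At an unadjusted p under 0.05, 1157 genes (7.03%) and 10 members (26.3%) passed. Adding the experiment as a block left 0 genes under the threshold. The lowest adjusted p over all genes was then 0.125. Among the members C8b had this value, and it passed the filter through its 3D arrays alone. The adjustment can give several genes the same value, so 0.125 does not place C8b first among all genes. The direction depends on what the arrays are scaled to. Scaled to the spike-in control spots instead, the differences of all genes dropped by 1.68 in iHep-1 and by 0.53 in iHep-2, 9 members had a difference of at least 2-fold in favour of 3D in both experiments, 11 members had a mean difference of the other sign, and the median of the members was 0.56, against -1.08 for all genes. That scaling called 291 genes (1.77%), 76 of them higher in 3D (0.462%), and among those were 4 members, C8b, Cpb2, Plg and Serpinc1. Statements of direction below are relative to the 75th percentile. Standard errors of culture differences below come from the fit without the block, so they include level differences between the experiments. For Proc the standard error was 0.91 without the block and 0.23 with it, and for Plg 1.70 and 1.77.

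**Figure D1:**
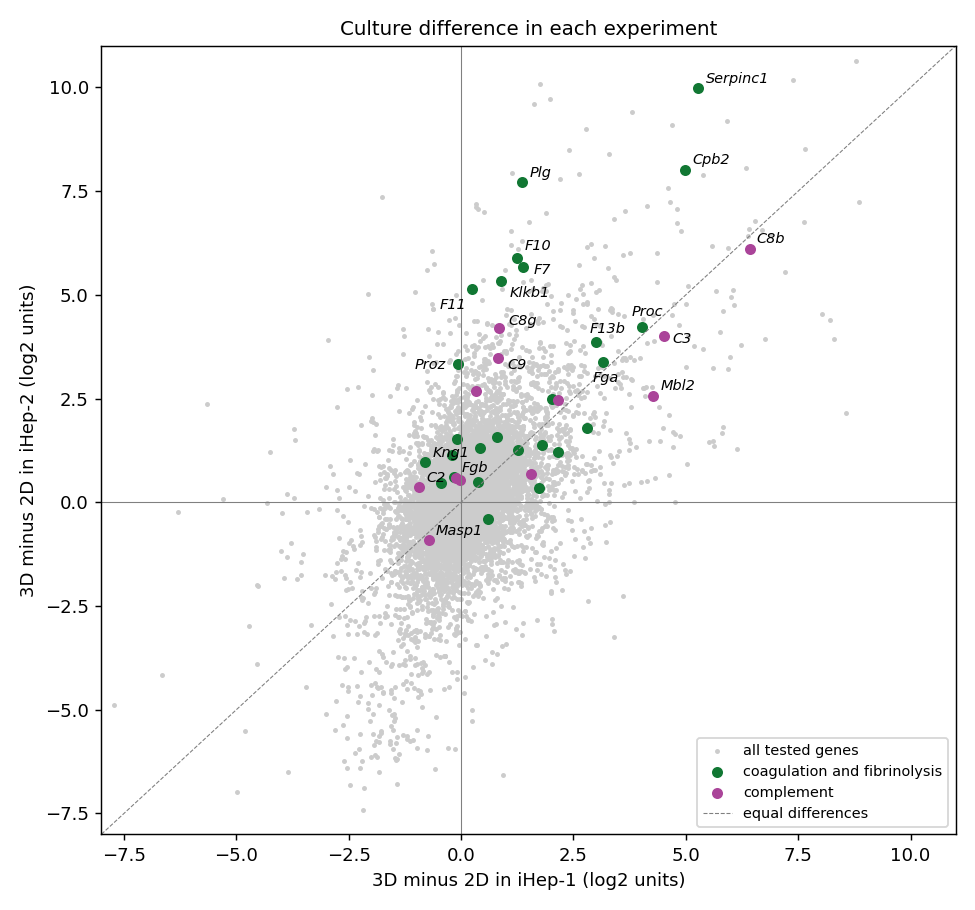
Difference between 3D and 2D in log2 units in iHep-1 (horizontal axis) against iHep-2 (vertical axis), 1 point per tested gene, with coagulation and fibrinolysis genes in green, complement genes in purple, all tested genes in grey and a dashed line of equal differences. Most members lie above 0 on both axes, with Serpinc1, Cpb2 and C8b farthest out, and F7, F10, F11, Klkb1 and Plg lie well above the line.

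Among the 9 clotting factors, 8 were higher in 3D in both experiments, 5 of them at least 2-fold, and none passed the test. F13b, the carrier subunit that protects the fibrin-crosslinking enzyme factor XIII, stood at -6.15 in 2D and -3.14 in 3D in iHep-1, and at -3.98 and -0.11 in iHep-2. Both 3D values exceeded both 2D values, by a mean of 3.44 ± 1.41 (SE; adjusted p = 0.684, limma), and only 1 of the 2D arrays was well above background. With normexp background correction the difference was 1.73. F7, the protease that with tissue factor starts clotting, was at -0.28 and 1.1 in iHep-1 and at -5.77 and -0.09 in iHep-2, in 2D and 3D. Its difference was 3.53 ± 2.11 (adjusted p = 0.723), or 2.18 with normexp, with the lowest value on the 2D array of iHep-2. F5, the cofactor of the enzyme that makes thrombin, was at -3.19 and -1.39 in iHep-1 and at -5.30 and -3.90 in iHep-2. The 3D array exceeded its 2D partner each time, but the groups overlapped because iHep-2 was lower in both cultures (1.60 ± 1.24, adjusted p = 0.769, and 0.89 with normexp). F2, which encodes prothrombin, was at 3.78 and 5.04 in iHep-1 and at 7.05 and 8.31 in iHep-2. The culture difference of F2 was 1.26 in each experiment, 2.39-fold, while iHep-2 exceeded iHep-1 by 3.28 in 2D and 3.27 in 3D. The groups of F2 therefore overlapped (1.26 ± 1.74, adjusted p = 0.866), and with spike-in scaling its difference was 0.16.

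The other clotting factors spanned mean differences of 0.10 to 3.57. F10, the protease that cuts prothrombin, was higher by 1.25 and 5.90 in iHep-1 and iHep-2, and F11, an amplifier of the intrinsic route, by 0.25 and 5.15. F9, the hemophilia B factor, was higher by 1.73 and 0.35, and F12, the contact-activated protease, by 0.42 and 1.31. F3, the membrane receptor known as tissue factor, which other cell types than hepatocytes also make, differed by 0.60 and -0.41 and did not keep a direction.

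The 3 fibrinogen chains, which are joined into 1 protein, did not show equal differences. Fga was at 0.15 in 2D and 3.30 in 3D in iHep-1 and at 1.86 and 5.24 in iHep-2, which is 8.91-fold and 10.4-fold, and both 3D arrays exceeded both 2D arrays (3.27 ± 0.99, adjusted p = 0.684). Fgg was at 7.69 and 8.49 in iHep-1 and at 7.43 and 9.0 in iHep-2, with groups that also did not overlap (1.19 ± 0.30, adjusted p = 0.684). For Fgb the values were 9.46 and 9.31 in iHep-1 and 9.02 and 9.63 in iHep-2, so the groups overlapped (0.23 ± 0.29, adjusted p = 0.848). The probes of these genes lie within 27.6 kb of each other on chromosome 3, and the next gene, Plrg1, 28.9 kb away, differed by 0.24 and -0.34. Scaled to the spike-in spots, Fga kept its direction (2.17), Fgg was close to 0 (0.08) and Fgb turned to -0.87. Of the promoters printed above, that of Fga holds TTGAGCAA, a match to the C/EBP motif, that of Fgb a C/EBP match and CTGGGAA, and that of Fgg CTGGGAA alone.

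Of the contact system, 1 member was higher in 3D in both experiments and the other had differences of opposite sign. Klkb1, which encodes prekallikrein, was at -0.99 and -0.10 in iHep-1 and at -3.38 and 1.95 in iHep-2, in 2D and 3D (3.11 ± 1.20, adjusted p = 0.684, and 2.51 with normexp). Both 3D values were above both 2D values, with a difference of 0.89 in iHep-1 and 5.33 in iHep-2. Kng1, the kininogen from which kallikrein releases bradykinin, differed by -0.80 and 0.96. Mice carry a second kininogen gene, Kng2, close in sequence, whose own probe differed by -0.88 and 1.06, and how far the probes share signal was not tested.

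Among the anticoagulants, antithrombin and protein C were far higher in 3D, and the other 3 were not clearly so. Serpinc1, which encodes antithrombin, the main inhibitor of thrombin and factor Xa (probe at chr1:162932565-162932624, mm9), was at -1.24 in 2D and 4.04 in 3D in iHep-1 and at -6.17 and 3.81 in iHep-2. The mean difference was 7.63 ± 1.85 (adjusted p = 0.684), with 1 of the 2D arrays, that of iHep-2, not well above background. A second Serpinc1 probe, well above background on all 4 arrays, gave -3.15 and 0.73 in iHep-1 and -4.02 and 0.70 in iHep-2, a mean difference of 4.30. The direction was the same and the size smaller by over 3 log2 units. With normexp the difference of Serpinc1 was 5.99.

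Proc, the precursor of activated protein C, which inactivates the cofactors of the clotting proteases, was at -1.16 and 2.86 in iHep-1 and at 0.41 and 4.63 in iHep-2. Its differences, 16.3-fold and 18.7-fold, were close to each other (4.12 ± 0.91, adjusted p = 0.684). Pros1, the cofactor of protein C, was at 2.76 and 3.14 in iHep-1 and at 1.79 and 2.27 in iHep-2. Its differences, 0.38 and 0.48, were small and alike (0.43 ± 0.53, and ± 0.22 with the experiment as a block). Proz, the cofactor of an inhibitor of factor Xa, differed by -0.07 and 3.34, and Serpind1, heparin cofactor II, by -0.09 and 1.52. The vitamin K-dependent members, F2, F7, F9, F10, Proc, Pros1 and Proz, were thus higher in both experiments in 6 of 7, with a median difference of 1.64.

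**Figure D2:**
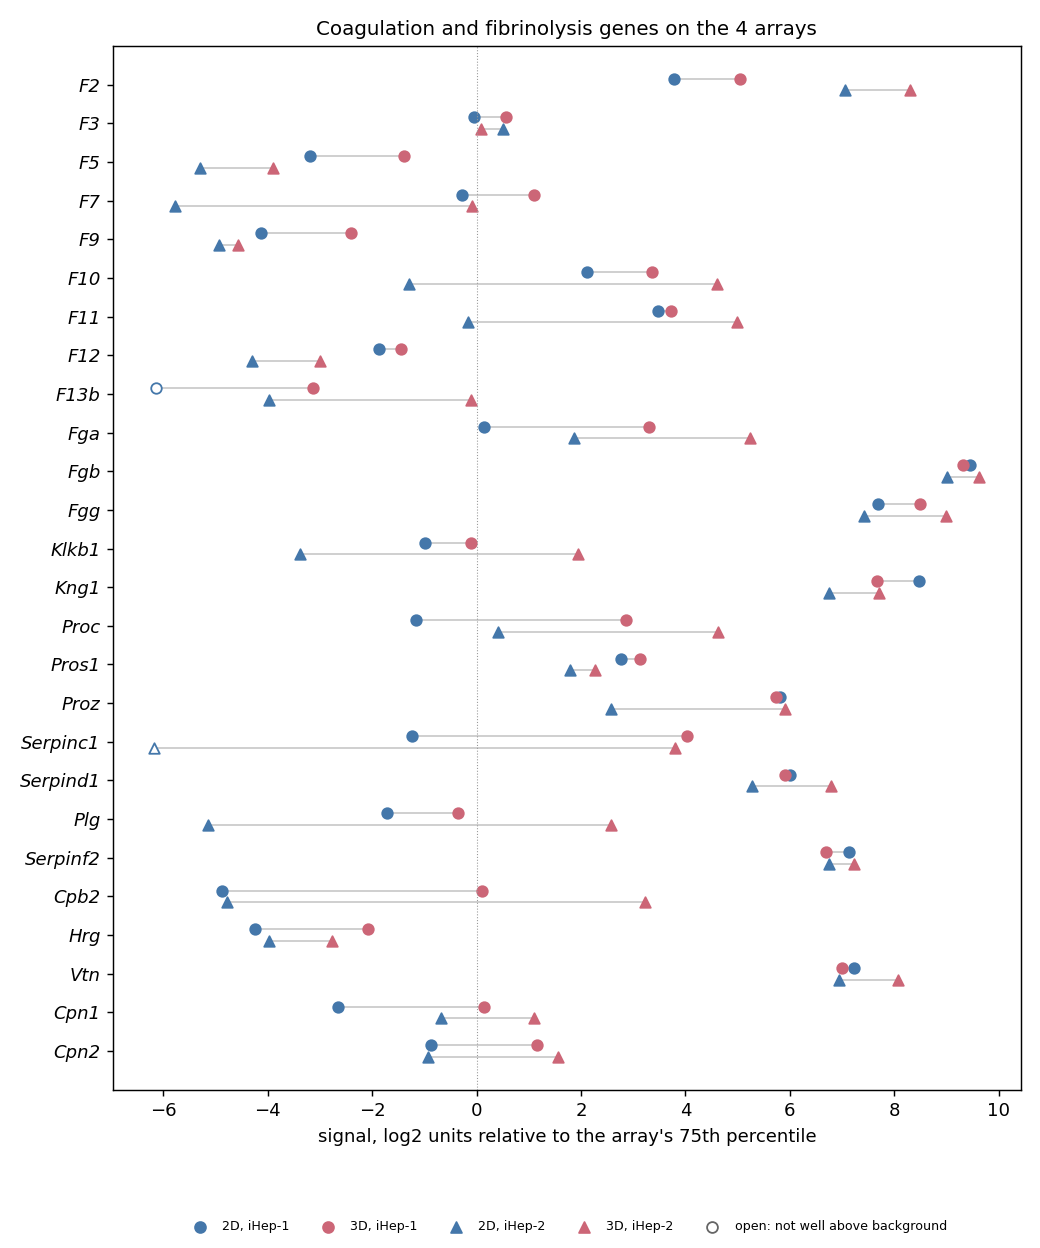
Signal of the 26 coagulation and fibrinolysis genes on the 4 arrays, in log2 units relative to the 75th percentile of the array (horizontal axis), with 1 row per gene, circles for iHep-1, triangles for iHep-2, blue for 2D, red for 3D, open symbols for arrays not well above background and lines joining the arrays of an experiment. The lines of Proc, Fga and Cpn2 have like lengths in both experiments, and those of F7, F10, F11, Klkb1 and Plg are long only in iHep-2, where the 2D array is low.

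In fibrinolysis, 3 of 5 members exceeded their 2D level by at least 2-fold in each experiment. Cpb2, a carboxypeptidase that trims fibrin and so slows plasmin, (probe at chr14:75683201-75683260, mm9) was at -4.87 in 2D and 0.11 in 3D in iHep-1 and at -4.79 and 3.22 in iHep-2. The 2D values lay within 0.08 of each other and both 3D values far above them, by 31.5-fold and 259-fold (6.50 ± 1.18, adjusted p = 0.684). With normexp the difference of Cpb2 was 4.37. Plg, the precursor of plasmin, was at -1.71 and -0.35 in iHep-1 and at -5.14 and 2.58 in iHep-2, so that most of its difference came from iHep-2 (4.54 ± 1.70, adjusted p = 0.684, and 3.39 with normexp). Hrg, a plasma protein that binds heparin and plasminogen, was at -4.24 and -2.08 in iHep-1 and at -3.98 and -2.76 in iHep-2 (1.69 ± 0.34, adjusted p = 0.684, and 0.96 with normexp), with no overlap of the groups. Serpinf2, the plasmin inhibitor alpha-2-antiplasmin, differed by -0.44 and 0.47, and Vtn, vitronectin, which stabilises an inhibitor of plasminogen activation, by -0.21 and 1.13.

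Both subunits of carboxypeptidase N, which removes end residues from kinins and complement fragments, were higher in 3D. Cpn2, the regulatory subunit, was at -0.88 and 1.15 in iHep-1 and at -0.93 and 1.56 in iHep-2, with 2D values 0.05 apart and 3D values 0.41 apart (2.26 ± 0.26, adjusted p = 0.684). Cpn1, the catalytic subunit, was at -2.65 and 0.15 in iHep-1 and at -0.68 and 1.1 in iHep-2 (2.29 ± 0.84, adjusted p = 0.684). A dimmer Cpn1 probe, well above background on 2 arrays, gave a mean difference of 0.78.

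The lectin pathway of complement, in which sugar-binding proteins activate their own proteases, held both directions. Mbl2, a mannose-binding lectin, was at -0.91 in 2D and 3.35 in 3D in iHep-1 and at -1.83 and 0.74 in iHep-2 (3.42 ± 1.06, adjusted p = 0.684), with both 3D arrays above both 2D arrays. Masp2, the protease that cuts C4 and C2, was at -0.95 and 1.20 in iHep-1 and at 1.21 and 3.67 in iHep-2. Its differences of 2.15 and 2.46 were alike, but the 3D value of iHep-1 did not exceed the 2D value of iHep-2 (2.31 ± 1.24, adjusted p = 0.706). Masp1, the protease that activates Masp2, was at 5.33 and 4.61 in iHep-1 and at 4.93 and 4.02 in iHep-2, with both 3D values below both 2D values (-0.81 ± 0.33, adjusted p = 0.684). The direction of Masp1 depended on the probe.

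The brightest of its 4 probes, at chr16:23468544-23468603 on build mm9, differed by -0.72 and -0.91, and another at chr16:23479833-23479892 by -0.46 and -0.70. The other 2, at chr16:23449609-23449668 and chr16:23452460-23452519, differed by -0.44 and 1.04 and by -0.32 and 1.42, so all 4 were lower in 3D in iHep-1 and only the first 2 in iHep-2. The gene encodes several proteins by alternative splicing, and which transcript each probe reads was not tested. Mbl1, the other mannose-binding lectin, was well above background only on the 3D array of iHep-2 and was not tested. Its signals were -8.24 and -6.39 in iHep-1 and -8.52 and -4.54 in iHep-2, in 2D and 3D, and no fold was drawn from them.

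C3, on which all complement pathways converge (probe at chr17:57343416-57343475, mm9), was at 0.82 in 2D and 5.34 in 3D in iHep-1 and at 3.23 and 7.24 in iHep-2. The 3D arrays exceeded the 2D arrays by 22.8-fold and 16.1-fold (4.26 ± 1.17, adjusted p = 0.684). The 2 proteases that form the enzymes that cut C3 did not follow it. C2, of the classical and lectin pathways, differed by -0.93 and 0.36, and Cfb, of the alternative pathway, by -0.02 and 0.55. Their probes lie 6.13 kb apart on chromosome 17 in the major histocompatibility complex.

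Of the 6 terminal components, the 4 that could be tested were higher in 3D in both experiments. C8b was among the 4 through its 3D arrays alone, so its direction was fixed by the filter. C8b, the beta chain of C8 (probe at chr4:104476999-104477058, mm9), was not well above background on either 2D array (-7.40 and -8.50) and stood at -0.98 and -2.39 on the 3D arrays of iHep-1 and iHep-2. Under the main background correction C8b was at least 21.4-fold higher in 3D. This bound sets the mean of the 3D arrays against, per 2D array, the higher of the lowest well-measured signal and the probe's own. The mean difference of C8b was 6.27 (adjusted p = 0.684, limma). With normexp background correction it was 2.09, smaller than the bound, so the bound depends on the correction. C8g, the lipocalin-like gamma chain of C8, was at -1.77 and -0.92 in iHep-1 and at -2.78 and 1.41 in iHep-2 (2.52 ± 0.97, adjusted p = 0.684). C9, which polymerises into the pore, was at -1.92 and -1.09 in iHep-1 and at -2.24 and 1.23 in iHep-2 (2.16 ± 0.90, adjusted p = 0.684). In both, the 3D arrays lay above the 2D arrays, with the larger difference in iHep-2.

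C5, the source of the anaphylatoxin C5a, was at 3.39 and 3.72 in iHep-1 and at 5.17 and 7.85 in iHep-2, with overlapping groups (1.51 ± 1.69, adjusted p = 0.829). C8a, the alpha chain of C8, was not well above background on any array, with signals of -7.95 and -8.27 in 2D and -7.17 and -7.50 in 3D. Its probe lies within 11.5 kb of that of C8b on chromosome 4. C6, which joins the growing pore, was well above background only on the 3D array of iHep-1, with signals of -7.09 and -6.33 in 2D and -5.75 and -5.86 in 3D, and was not tested.

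Of the complement inhibitors, C4bp, which binds C4b and aids its cleavage, was at 2.86 in 2D and 4.41 in 3D in iHep-1 and at 6.37 and 7.06 in iHep-2. The 3D array was higher within each experiment, and the groups overlapped because both arrays of iHep-2 lay above both of iHep-1 (1.12 ± 1.66, adjusted p = 0.876). Cfi, the protease that cleaves C3b and C4b, was at 6.45 and 6.34 in iHep-1 and at 7.75 and 8.33 in iHep-2, again with all of iHep-2 above iHep-1. Serping1, the C1 inhibitor, which also blocks kallikrein and factor XIIa, was well above background only on the 3D array of iHep-1 and was not tested. No bound could be given for it, since the 3D array of iHep-2 was its dimmest, at -7.69.

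**Figure D3:**
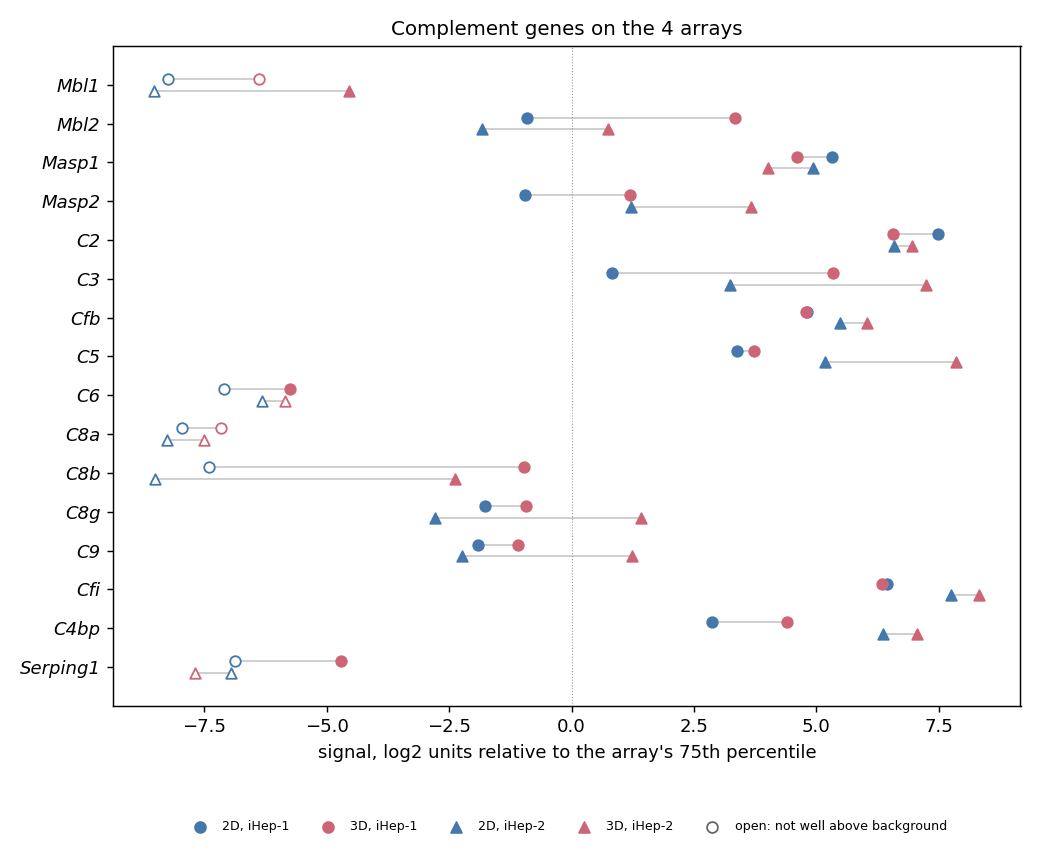
Signal of the 16 complement genes on the 4 arrays, in log2 units relative to the 75th percentile of the array (horizontal axis), with 1 row per gene, circles for iHep-1, triangles for iHep-2, blue for 2D, red for 3D, open symbols for arrays not well above background and lines joining the arrays of an experiment. C3, Mbl2 and C8b have 3D symbols to the right of both 2D symbols, Masp1 has them to the left, and C8a has open symbols alone.

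For 27 of the 38 members (71.1%) the difference was larger in size in iHep-2, as it was for 65.4% of all tested genes, whose differences had a standard deviation of 0.83 in iHep-1 and 1.2 in iHep-2. In 9 members (23.7%) the difference in iHep-2 exceeded that in iHep-1 by at least 3 log2 units, which 1.12% of all genes did. They were F7, F10, F11, Klkb1, Proz, Serpinc1, Plg, Cpb2 and C8g, and the limit of 3 was chosen after their values were seen. Serpinc1 was among them through a 2D iHep-2 signal not well above background, and its second probe gave 3.89 and 4.72. In 8 of the 9, all but Cpb2, the 2D array of iHep-2 was the lowest of the 4. A low signal on that array itself helps a gene past the limit. The same share among all genes past the limit was not counted. F10, for example, was at 2.11 and 3.36 in iHep-1 and at -1.30 and 4.6 in iHep-2, in 2D and 3D, and F11 at 3.48 and 3.73, and at -0.17 and 4.98. In 3D, iHep-2 minus iHep-1 was 1.24 for F10 and 1.25 for F11, and in 2D it was -3.41 and -3.65. Proz stood at 5.81, 5.74 and 5.91 on 3 arrays and at 2.57 in 2D iHep-2. On that array the summed levels of hepatocyte markers were lowest and those of biliary and fibroblast markers highest, as given above. Not every marker followed its sum. The hepatocyte marker Cps1 was at 3.09 in 2D iHep-2 and lowest in 2D iHep-1, at 0.22. The biliary markers Krt19, Krt7 and Spp1 were highest in 2D iHep-2. Sox9 and Epcam, at 1.33 and -2.70 in 2D iHep-2, were highest in 3D iHep-2, at 1.58 and -1.75. The fibroblast sum rested on Vim, at 5.86 in 2D iHep-2 and at 3.61 to 4.72 on the other arrays. In contrast, 5 of the 9 fibroblast markers (Col1a1, Col1a2, Thy1, S100a4 and Dcn) had their lowest signal there. Of these, Col1a1, Thy1 and Dcn were not well above background on that array, so their low signals there are not measured levels. The part of these levels in the result was not tested.

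Of these 9 genes, 5 lie in 2 groups of neighbours. The probes of F7, F10 and Proz fall within 40.7 kb of chromosome 8, and those of F11 and Klkb1 within 31.0 kb elsewhere on it (mm9 coordinates of the array). Genes flanking the first group did not share its pattern. Mcf2l, 15.0 kb from it, differed by 2.18 in iHep-1 and 2.63 in iHep-2, Pcid2, 1.86 kb away on the other side, by -0.33 and -0.45, Cul4a by -0.31 and -0.08, and Lamp1 by -0.66 and 0.14. Next to the second group, Cyp4v3, a fatty acid hydroxylase 33.7 kb away, differed by -0.15 and 2.49, with its lowest value also in 2D iHep-2, and Fam149a, 66.8 kb away, by 0.35 and 0.72. In all, 14 members lay in 6 groups with probes at most 150 kb apart.

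**Figure D4:**
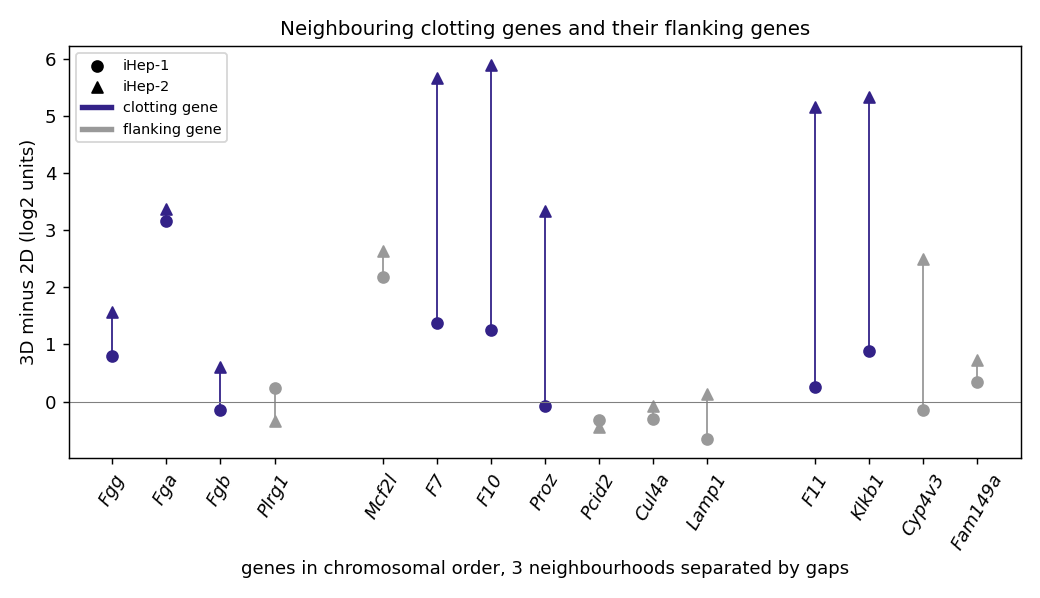
Difference between 3D and 2D in log2 units (vertical axis) in iHep-1 (circles) and iHep-2 (triangles) for neighbouring clotting genes (dark blue) and their flanking genes (grey), in chromosomal order, with 1 column per gene. F7, F10, Proz, F11 and Klkb1 have triangles far above their circles, while Fga, Mcf2l and Pcid2 have both symbols close together.

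Between the experiments the members went both ways. Higher in iHep-2 in both cultures were 12 of the 38, against 30% of all genes, and 9 were lower in both, against 33.6%. At least 2-fold higher in both were 9 members, against 5.12%, and at least 2-fold lower in both 4, against 5.75%. limma called 54 of all genes between iHep-2 and iHep-1 (0.328%, smallest adjusted p 0.028) and 0 members. That count was 303 with culture as a block and 0 with any 1 array left out. At an unadjusted p under 0.05, 2083 of the 16451 tested genes and 7 of the 38 members passed, so passing was common over all genes too. Those members were F2, C4bp, Cfi, C5 and Cfb, higher in iHep-2 by 3.27 ± 0.67 (SE), 3.08 ± 0.64, 1.65 ± 0.31, 2.95 ± 0.99 and 0.95 ± 0.30, and F12 and Pros1, which differed by -1.99 ± 0.54 and -0.92 ± 0.31. Adjusted p was 0.175 for F2, and 0.0432 with culture as a block, so that the call of F2 depends on the block.

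The rest of the pathways, from lists of genes that are not members, had smaller median differences than the members. Of 15 tested genes of coagulation and fibrinolysis, 6 were higher and 3 lower in 3D in both experiments, 0 passed the adjusted test, and the median difference was 0.25. The largest shared differences were in Serpina5, a protein C inhibitor (2.06 and 2.47, not well above background on either array of iHep-2), Vwf, the platelet adhesion protein and carrier of factor VIII (1.27 and 2.05), and Thbd, the receptor that turns thrombin towards protein C (1.17 and 2.94, with 2D iHep-2 not well above background). Lower in 3D were Plat, tissue plasminogen activator, at 3.77 and 2.13 in iHep-1 and at 3.58 and 1.94 in iHep-2 (-1.64 ± 0.23, adjusted p = 0.684), Serpine2, protease nexin-1 (-0.69 and -1.48), and F2r, a thrombin receptor (-0.15 and -2.29). Of 5 genes of the vitamin K cycle and factor export, 2 were higher in both, Vkorc1l1 (0.37 and 0.71) and Vkorc1 (0.12 and 1.30), which recycle vitamin K.

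Of 13 tested complement genes outside the members, 9 were higher and 2 lower in 3D in both experiments, with a median of 0.92 and 0 calls. C4b, the classical pathway component, differed by 1.46 and 2.62, and Cd59a, which blocks the pore, by 1.81 and 1.30 (2D iHep-1 not well above background). C4a and C4b are near-identical copies whose probes may share signal. Colec11, a soluble lectin, differed by -0.20 and -2.32 (3D iHep-2 not well above background), and Clu, clusterin, by -0.10 and -0.03.

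Of 11 tested regulators known to act on promoters of these families, 6 were higher and 1 lower in 3D in both experiments, with a median of 0.23 and 0 calls. The receptor genes Nr1h4 and Ppara differed by 1.56 and 1.70 (both arrays of iHep-1 not well above background for Nr1h4) and by 0.74 and 1.32, the forkhead factor gene Foxa3 by 0.77 and 0.60, and Onecut1 was the lower one (-1.02 and -1.16). Cebpa, which encodes a C/EBP factor, differed by 0.17 and 1.55, and Foxa2 by 2.83 and -2.38, with 2 of its 4 arrays well above background. Hnf4a was at 2.01 and 1.20 in iHep-1 and at 0.93 and 1.17 in iHep-2.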

How the data were processed

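Total RNA of the 4 samples was labelled with Cy3 and hybridised to 1-colour Agilent arrays of design 014868, all on 1 slide with 1 scan time per the file headers. The authors deposited spot intensity on a linear scale, read out by Agilent Feature Extraction, version 10.7.1.1 per the file headers and 9.5.1.1 per the submitters' processing notes, with probe positions on mm9. The authors also deposited a table of normalized intensity whose median per array was 26.3 in iHep-1 and 22.6 in iHep-2. The arrays of an experiment thus shared a median, by steps not given in the sources used here. The table served as an alternative.

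From the processed signal, log2 was taken and the 75th percentile of each array over noncontrol spots subtracted (523.295, 594.422, 616.023 and 398.846 in the order 2D iHep-1, 3D iHep-1, 2D iHep-2, 3D iHep-2). Outlier spots (72 to 85 per array) were left out and 0 spots were saturated. Of 41174 probes, 56% to 59.3% were well above background per array. They were named by accession through a RefSeq table (24844), by symbol (7855) or by the name in the file (8475). The brightest of the passing probes stood for a gene. The groups were compared in R 4.3.3 by limma 3.58.1, through lmFit and eBayes (two-sided, adjusted p under 0.05), a step tested on simulated data first. Experiments are paired: the design text says that each number marks a shared experiment, and deviations from group means correlated at 0.6606 within an experiment, so a fit with the experiment as a block was an alternative.

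The members and lists were chosen with earlier results of these data known. Within each role the text gives all arrays for up to 4 members with the largest difference shared by both experiments, and up to 3 other genes per list and direction, of which 1 is not reported here. F10, F11, Proz, Kng2, Fgb, Cfi, Alb, Vim, Cebpa, Foxa2 and Hnf4a with their values, and the neighbouring genes, were chosen after their values were seen. Alternatives were normexp background correction (offset 50), quantile normalization, spike-in scaling (188 spots), the authors' table, a filter on all 4 arrays or none, the mean of probes, an intensity trend with a robust prior, and leaving out each array.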

Additional observations from a re-analysis of the deposited data

Results flagged for a closer look

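In 10 of the 38 tested members, the array in 3D was higher than its 2D partner in one experiment and lower in the other, against 33.8% of all tested genes. With 1 array per culture in each experiment, the difference between experiments was not tested for any of them. In iHep-1 and iHep-2, 3D minus 2D was 0.60 and -0.41 for F3, the receptor that starts clotting, and -0.15 and 0.61 for Fgb. It was -0.80 and 0.96 for Kng1 and -0.07 and 3.34 for Proz. For the inhibitors Serpind1 and Serpinf2 it was -0.09 and 1.52, and -0.44 and 0.47. Vtn gave -0.21 and 1.13. Among complement genes it was -0.93 and 0.36 for C2, -0.02 and 0.55 for Cfb, and -0.12 and 0.58 for Cfi. In 9 of the 10, all but F3, the positive difference was in iHep-2. The same share among all genes with opposite differences was not counted. For Proz, Serpind1, Cfb and Cfi the negative difference was close to 0.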

How the results depend on the processing

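All 38 tested members were refitted under each alternative. The 0 calls between cultures became 291 genes and 4 members with spike-in scaling, which also gave 9 members at least 2-fold higher and 1 (Masp1) at least 2-fold lower in both experiments and a median of 0.56. The same scaling turned Cfb (-0.83), Cfi (-0.87), F12 (-0.23), F3 (-1.0), F9 (-0.06), Fgb (-0.87), Kng1 (-1.02), Pros1 (-0.67), Serpind1 (-0.39), Serpinf2 (-1.09) and Vtn (-0.64). Other settings turned Serpinf2 (-0.03 with normexp and with the authors' table, -0.08 with quantile normalization) and Kng1 (-0.08, quantile). The replicate block called 0 genes between cultures (smallest adjusted p 0.125) and changed no member's call there. Between experiments, 54 calls became 100 with normexp, 127 with quantile normalization, 401 with spike-in scaling, 136 with the authors' table, 3 with the filter on all 4 arrays, 303 with the replicate block (culture) and 31 with the trend and robust prior, and 0 to 0 with any 1 array left out. The members' median there, 0.05, became -0.06 with quantile normalization and -0.11 with the authors' table, and ran from -0.71 to 1.4 with 1 array left out. The cause of these shifts was not tested.

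With 1 array left out, the culture median of the members ran from 1.59 to 2.45, the highest without 3D iHep-1. Single members crossed 0, over ranges of -0.73 to 0.17 (C2), -0.64 to 2.88 (C4bp), -0.56 to 3.57 (C5), -0.35 to 0.88 (Cfb), -0.77 to 1.23 (Cfi), -0.35 to 2.08 (F12), -0.38 to 2.90 (F2), -0.17 to 0.36 (F3), -0.04 to 2.13 (F9), -0.78 to 0.94 (Kng1), -0.06 to 0.91 (Pros1), -0.25 to 0.28 (Serpinf2) and -0.08 to 0.99 (Vtn). A fit with 1 array left in a culture assumes that it varies like the other group. Counts over both experiments have no such value. Signals not well above background limit C8b, F13b, Serpinc1 in 2D and the 4 untested members. With normexp the differences of other dim members also shrank, beside those given above. Among them were F9 (from 1.04 to 0.65) and F12 (from 0.87 to 0.56).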
